A study of Mus musculus with 18 samples.

Results

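The 10 genes described here form the core of Gq signalling and of the calcium store of the endoplasmic reticulum. They were taken by name from the expression table, with no threshold on their values, and are 10 of the 23924 genes read. By role they are the Gq class alpha subunits Gnaq and Gna11, the phospholipases C Plcb1, Plcb3, Plcb4 and Plcd4, the IP3 receptor Itpr2, the store pump Atp2a2, and Stim1 and Orai1 of store-operated calcium entry. RNA was sequenced from astrocytes of the primary motor cortex (M1) of wild-type C57BL/6 mice, in 18 libraries. The naïve group holds 6 libraries from untrained mice aged 12 to 21 weeks, and the novice group 6 from mice aged 11 to 13 weeks after 3 days on a cued lever-push task. The expert group holds 6 libraries from fully trained mice aged 13 to 15 weeks. Trained mice were kept on restricted water and worked for water drops, and each group has 2 libraries labelled female and 4 labelled male. The labels give neither how the astrocytes were isolated nor whether any library pooled mice.

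As background, a receptor coupled to Gq loads its alpha subunit with GTP, and the alpha subunit then activates a phospholipase C of the beta class. The phospholipase splits a membrane lipid into diacylglycerol and IP3, and IP3 opens receptors in the endoplasmic reticulum that release stored calcium. The pump encoded by Atp2a2 refills the store, and Stim1 senses an emptied store and opens Orai1 in the plasma membrane. In mouse astrocytes Itpr2 is known as the receptor behind most of the large calcium signals of the cell body, which noradrenaline, acetylcholine and glutamate can evoke through Gq.

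Values are FPKM, sequenced fragments per length of transcript and per total of mapped fragments, so levels can be set side by side between genes within a library. Of the summed FPKM of a library, 1 RNA, Bc1, held 6.01% to 59.6%. Values are those of the whole library, and how much of them came from cells other than astrocytes was not tested. Estimated from low values and the longest annotated transcript, the median library held about 284 fragments of Atp2a2, 116 of Itpr2 and 104 of Gnaq, but 34 of Stim1 and 8 of Orai1 (range 4 to 23, without expert 3, whose depth is unknown). The 20 astrocyte markers averaged 6.91, 6.34 and 7.11 on the log2(FPKM + 1) scale in naïve, novice and expert libraries, above the 15 neuron markers at 4.5, 4.36 and 4.32 and the 12 endothelial markers at 4.40, 4.39 and 4.97. Each of these markers reached 1 FPKM in at least 1 of the 18 libraries. Single markers did not all follow the order of the lists. In naïve libraries the neuron markers Camk2a and Snap25 averaged 298 and 129 FPKM. The astrocyte markers Aldh1l1 and Aqp4 averaged less, at 39.0 and 61.0 FPKM, and Slc1a2 more, at 1397 FPKM. The libraries also fell into 2 classes by the mean FPKM of 1485 chemoreceptor genes that brain cells are not known to use, a measure of background. In 10 libraries (4 naïve, 2 novice, 4 expert) this mean lay between 0.307 and 3.35, and in 8 (2 naïve, 4 novice, 2 expert) between 4.75 and 6.82. Expert 3 stood apart, with the lowest background at 0.307 and the most genes at exactly 0, 5430.

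Gnaq and Gna11 are close relatives, and reads from shared stretches could be assigned to either. Their coding sequences, each 1077 bases long, were identical at 80.9% of aligned bases, in the GENCODE transcripts, and the longest stretch without a difference ran for 38 bases. For the other members and the paralogs examined, the longest shared coding stretch was 12 to 44 bases, the longest being between Atp2a2 and its relatives Atp2a1 and Atp2a3. Reads that lie wholly within such a stretch cannot be assigned by sequence alone.

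Gnaq, which encodes the Gq alpha subunit itself, ranged from 12.9 to 22.6 FPKM with a median of 20.2 in naïve libraries, from 9.28 to 23.6 with a median of 10.8 in novice libraries, and from 11.7 to 29.0 with a median of 19.1 in expert libraries. Gna11, its sister subunit, ranged from 10.7 to 27.4 FPKM with a median of 24.3 in naïve libraries, from 8.24 to 33.0 with a median of 12.4 in novice libraries, and from 8.85 to 31.3 with a median of 20.6 in expert libraries. The groups overlapped for both genes, and in each the novice libraries fell into a pair with high values, novice 1 and 2, and 4 with low values. Gnaq averaged 14.4 ± 6.51 FPKM in novice and 18.5 ± 3.92 FPKM in naïve libraries (SD, n = 6 each), a log2 fold change of -0.42 with a 95% interval of -0.97 to 0.14. In expert libraries Gnaq averaged 19.7 ± 6.46 FPKM, 0.05 above naïve on the log2 scale (interval -0.50 to 0.61). For Gna11 the log2 fold change was -0.37 (interval -1.13 to 0.39) for novice against naïve and -0.08 (interval -0.84 to 0.68) for expert against naïve. The 2 subunits were present at like levels, with a Gnaq to Gna11 ratio between 0.714 and 1.33 in the 18 libraries. The other Gq class subunits were lower, with means over all libraries of 1.13 FPKM for Gna14 and 1.98 FPKM for Gna15.

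Among the phospholipases C, Plcb1, an isoform abundant in cortex, averaged 17 ± 5.99 FPKM in novice and 18.7 ± 7.94 FPKM in naïve libraries, and 21.7 ± 7.0 FPKM in expert libraries (SD, n = 6 each). Plcb3, a broadly expressed beta isoform, ranged from 6.24 to 16.9 FPKM with a median of 9.94 in naïve libraries, from 5.24 to 9.05 with a median of 6.86 in novice libraries, and from 6.45 to 16.3 with a median of 12.2 in expert libraries. Novice libraries held the low end of Plcb3: 4 of 6 expert libraries lay above the highest novice library, and the other 2 lay within the novice range. Its log2 fold change was -0.49 for novice against naïve (interval -0.99 to 0.01), 0.12 for expert against naïve (interval -0.37 to 0.62) and 0.61 for expert against novice (interval 0.12 to 1.11). The limma p of Plcb3 for expert against novice was 0.018 without adjustment and 0.449 with Benjamini-Hochberg adjustment over all 21745 genes tested.

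Plcb4, best known from retina and cerebellum, averaged 10.1 ± 2.84 FPKM in novice and 10.6 ± 3.31 FPKM in naïve libraries, and 13.5 ± 3.64 FPKM in expert libraries (SD, n = 6 each). Plcd4, a delta isoform that calcium itself stimulates, averaged 14.9 ± 2.91 FPKM in novice and 16.7 ± 4.24 FPKM in naïve libraries, and 19.6 ± 6.03 FPKM in expert libraries (SD, n = 6 each). The groups overlapped for both genes, and the expert mean of each was pulled up by 1 library, expert 6 at 20.6 FPKM for Plcb4 and expert 3 at 30.4 FPKM for Plcd4. Their log2 fold changes for expert against naïve were 0.35 (interval -0.14 to 0.84) for Plcb4 and 0.21 (interval -0.25 to 0.66) for Plcd4. The paralog Plcb2 had a mean over all libraries of 1.56 FPKM, and the delta isoforms Plcd1 and Plcd3 at 5.0 and 3.09 FPKM.

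Itpr2 ranged from 6.59 to 14.0 FPKM with a median of 11.9 in naïve libraries, from 7.43 to 9.72 with a median of 8.77 in novice libraries, and from 9.89 to 20.8 with a median of 12.1 in expert libraries. All 6 expert libraries lay above all 6 novice libraries, while both overlapped the naïve range; such separation between expert and novice, in either direction, was seen for 0.432% of the genes tested. The lowest expert library, at 9.89 FPKM, and the highest novice library, at 9.72 FPKM, stood close together. Itpr2 averaged 13.5 ± 4.29 FPKM in expert and 8.64 ± 0.980 FPKM in novice libraries (SD, n = 6 each), a log2 fold change of 0.55 with a standard error of 0.22 and an interval of 0.10 to 1.0. The limma p was 0.020 without adjustment and 0.449 with Benjamini-Hochberg adjustment. Against naïve libraries, at 11.1 ± 3.22 FPKM, the log2 fold change was -0.29 (interval -0.75 to 0.16) for novice and 0.26 (interval -0.20 to 0.71) for expert libraries. Without expert 3, the library with the highest value, expert against novice stood at 0.42, and without expert 3 and 6, an alternative chosen after seeing the data, at 0.32. These 2 libraries were also the richest in endothelial markers, at 5.49 and 5.69, and expert 3 in astrocyte markers; their part in the result was not tested.

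The receptor Itpr1, prominent in neurons, was the more abundant per length: over all libraries Itpr2 had a mean of 11.1 FPKM, Itpr1 one of 40.6 FPKM and Itpr3 one of 4.30 FPKM. The Itpr2 to Itpr1 ratio varied from 0.104 to 0.915 between libraries. On the log2 scale of FPKM + 1 it averaged -1.22 ± 0.957 in expert and -1.64 ± 1.20 in novice libraries (SD, n = 6 each), a difference of 0.42 (exact permutation test over all splits, two-sided, p = 0.504, adjusted over 12 ratio tests 0.965). The 11 other comparisons of within-library ratios, of Gnaq to Gna11, Itpr2 to Itpr1, Itpr2 to Atp2a2 and Plcb1 to Plcb4, had the same adjusted p of 0.965 in exact permutation tests.

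Atp2a2, the pump that returns calcium to the endoplasmic reticulum, was the most abundant of the 10 genes, above 94.8% of all genes by its mean of 50.6 FPKM. It ranged from 24.9 to 79.4 FPKM with a median of 55.5 in naïve libraries, from 25.6 to 58.2 with a median of 29.2 in novice libraries, and from 33.8 to 96.4 with a median of 62.5 in expert libraries. The groups overlapped, although 4 of 6 expert libraries lay above the highest novice library. Atp2a2 averaged 61.3 ± 23.9 FPKM in expert and 37.1 ± 15.1 FPKM in novice libraries (SD, n = 6 each), a log2 fold change of 0.70 (interval 0.01 to 1.39), with a limma p of 0.048 without adjustment and 0.449 with Benjamini-Hochberg adjustment. Novice against naïve stood at -0.49 (interval -1.18 to 0.20) and expert against naïve at 0.21 (interval -0.48 to 0.90). Of its paralogs, Atp2a1 had a mean over all libraries of 2.26 FPKM. Atp2a3 averaged 7.87 ± 1.68 FPKM in expert and 4.43 ± 1.40 FPKM in novice libraries (SD, n = 6 each) and did not overlap between those groups, as for 0.432% of genes tested. Its log2 fold change was 0.73, with a limma p of 0.003 without adjustment and 0.449 with Benjamini-Hochberg adjustment. Atp2a3 was highest in expert 6 and 3, at 10.7 and 9.22 FPKM, the libraries richest in endothelial markers, and their part in the result was not tested.

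Stim1, the calcium sensor in the store membrane, had means of 8.47 ± 1.95, 7.93 ± 1.11 and 9.62 ± 1.71 FPKM in naïve, novice and expert libraries (SD, n = 6 each). Its groups overlapped, with log2 fold changes of -0.07 for novice against naïve (interval -0.44 to 0.31), 0.18 for expert against naïve (interval -0.20 to 0.55) and 0.24 for expert against novice (interval -0.13 to 0.62). Over all libraries Stim1 had a mean of 8.67 FPKM and its paralog Stim2 one of 7.42 FPKM. Orai1, the pore of store-operated entry, was the least abundant member at a mean of 4.91 FPKM. It ranged from 3.32 to 6.79 FPKM with a median of 5.27 in naïve libraries, from 2.77 to 6.32 with a median of 4.19 in novice libraries, and from 2.21 to 8.27 with a median of 5.13 in expert libraries. The 3 groups overlapped fully in that the expert range took in both others. Orai2 and Orai3 had means of 4.52 and 4.23 FPKM, so the 3 pore genes were at like levels. In the 8 libraries of higher background Orai1 averaged 5.26 FPKM, where the mean of the chemoreceptor genes was 4.75 to 6.82 FPKM per library. Their mean on the log2(FPKM + 1) scale was 1.54 to 1.88 there, so a typical chemoreceptor gene lay below the mean in FPKM. The lowest of these libraries for Plcb3, Stim1, Plcb4 and Itpr2 held 5.24, 5.69, 5.97 and 6.59 FPKM, also within 4.75 to 6.82 FPKM. The share of background in these values was not tested.

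By mean over the 18 libraries Atp2a2 was followed by Gna11 at 19.4, Plcb1 at 19.1, Gnaq at 17.5 and Plcd4 at 17.1 FPKM. After these came Plcb4 at 11.4, Itpr2 at 11.1, Plcb3 at 9.65, Stim1 at 8.67 and Orai1 at 4.91 FPKM. Within each of these runs, neighbours differed by less than the SD of either gene over libraries, apart from Stim1 and Orai1.

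**Figure D1:**
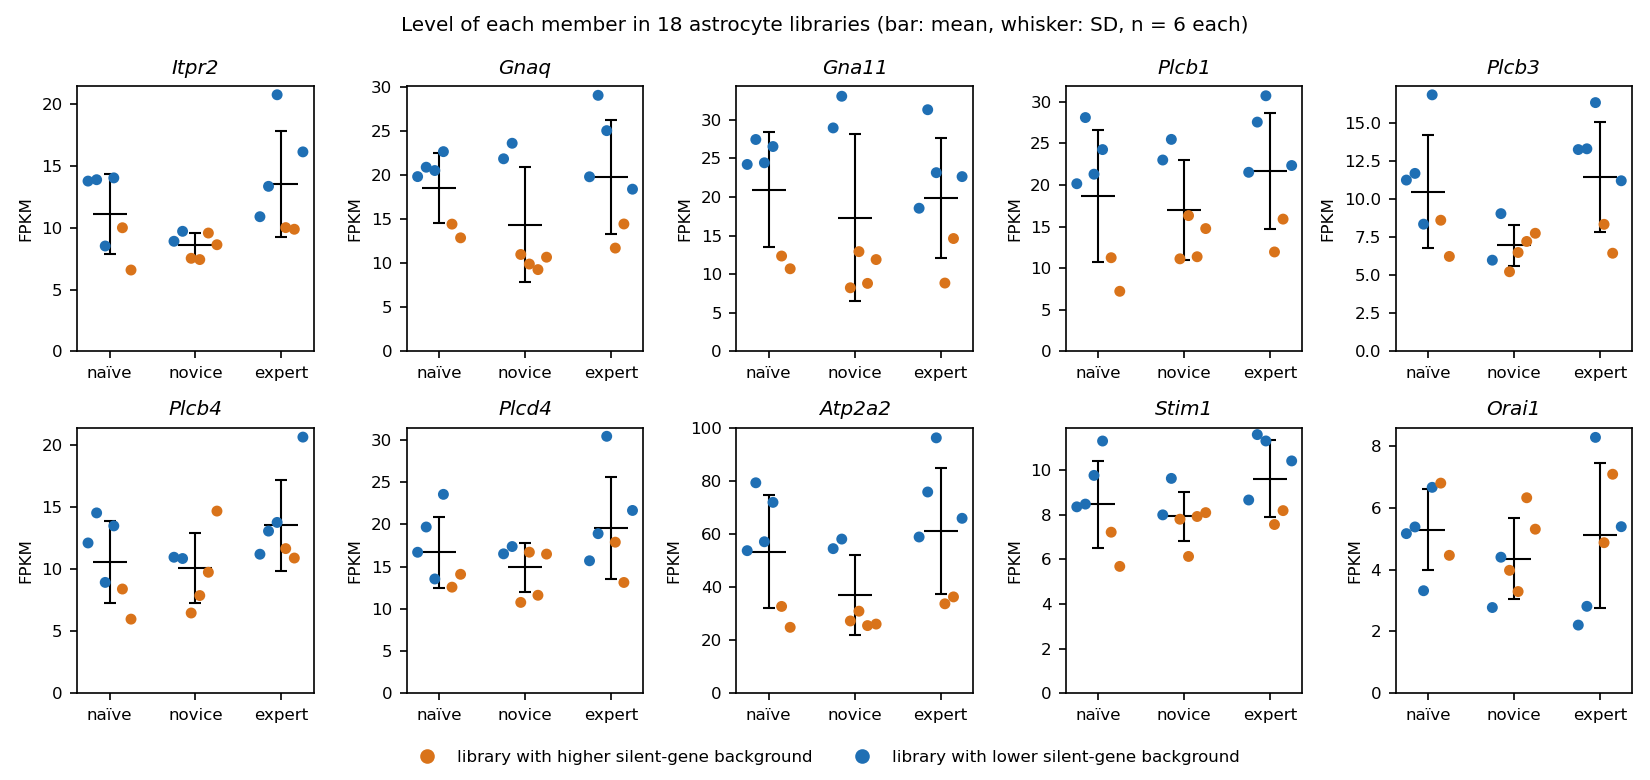
FPKM of each of the 10 genes (vertical axis, from 0) in naïve, novice and expert libraries, 1 point per library coloured by background class, with mean and SD (n = 6 each). For Itpr2 the expert points, 9.89 to 20.8 FPKM, lie above the novice points, 7.43 to 9.72 FPKM; for Gnaq, Gna11, Plcb1 and Atp2a2 the colours separate.

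Novice libraries had the lowest mean for all 10 genes. Of these, 8 genes had their highest mean in expert libraries, and Gna11 and Orai1 in naïve libraries. For novice against naïve 10 of 10 members had the lower mean, where 43.0% of all genes tested did. So did 5451 of the 9104 genes in the members' range of mean FPKM, called genes of like abundance. The median log2 fold change of the members was -0.27, against 0.07 over all genes and -0.08 over genes of like abundance. For expert against naïve 8 of 10 were higher, where 43.9% of all genes and 4880 of the 9104 genes of like abundance were. The members' median was 0.19, against -0.05 over all genes and 0.02 over genes of like abundance. This median was 0.03 without naïve 6, 0.07 without expert 3, 0.11 without naïve 5 and 0.13 without expert 2, and 0.28 without naïve 4 or without expert 5. For expert against novice 10 of 10 were higher, where 40.4% of all genes and 5640 of the 9104 genes of like abundance were. The members' median was 0.37, against -0.14 over all genes and 0.14 over genes of like abundance. The 3 comparisons share their libraries in pairs, so these directions are not independent of each other. Nor are the members independent, so their directions cannot be counted as separate results. Over the 18 libraries r was 0.93 between Gnaq and Gna11 and 0.93 between Plcb1 and Atp2a2, but -0.18 between Gna11 and Orai1. Of 45 pairs of members, 7 had r over 0.5 within both background classes.

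None of the 10 members passed an adjusted p of 0.05 in any of the 3 comparisons or in the moderated F test over the 3 groups (limma, Benjamini-Hochberg), and 0 of 21745 genes, 0%, did so in any of them. The smallest adjusted p of a member was 0.890 for novice against naïve, 1.0 for expert against naïve and 0.449 for expert against novice (limma, Benjamini-Hochberg). At an unadjusted p under 0.05 the members counted 0 for novice against naïve, where 4.60% of all genes passed, and 0 for expert against naïve, where 2.86% passed. For expert against novice they counted 3, Itpr2, Plcb3 and Atp2a2, all higher in expert libraries. Of all genes 4.88% passed as higher and 10.9% in either direction. Of the 9104 genes of like abundance 906 passed as higher and 339 as lower. The members' count was 1 with labelled sex and age as covariates and 1 without expert 3. It was 0 without expert 3 and 6 together and 0 without novice 1 and 3 together. With any other single library left out it was 2 to 4, and the 3 libraries whose loss gave 4 were novice 1, novice 2 and expert 4. In the F test over the 3 groups 1 member, Plcb3, was under 0.05 without adjustment, as were 5.53% of genes. No member separated the groups without overlap for novice against naïve, where 0.129% of genes did, or for expert against naïve, where 0.0782% did. A p over the threshold does not show that the groups are alike: the widest, that of Gna11, ran from -1.13 to 0.39 on the log2 scale for novice against naïve.

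**Figure D2:**
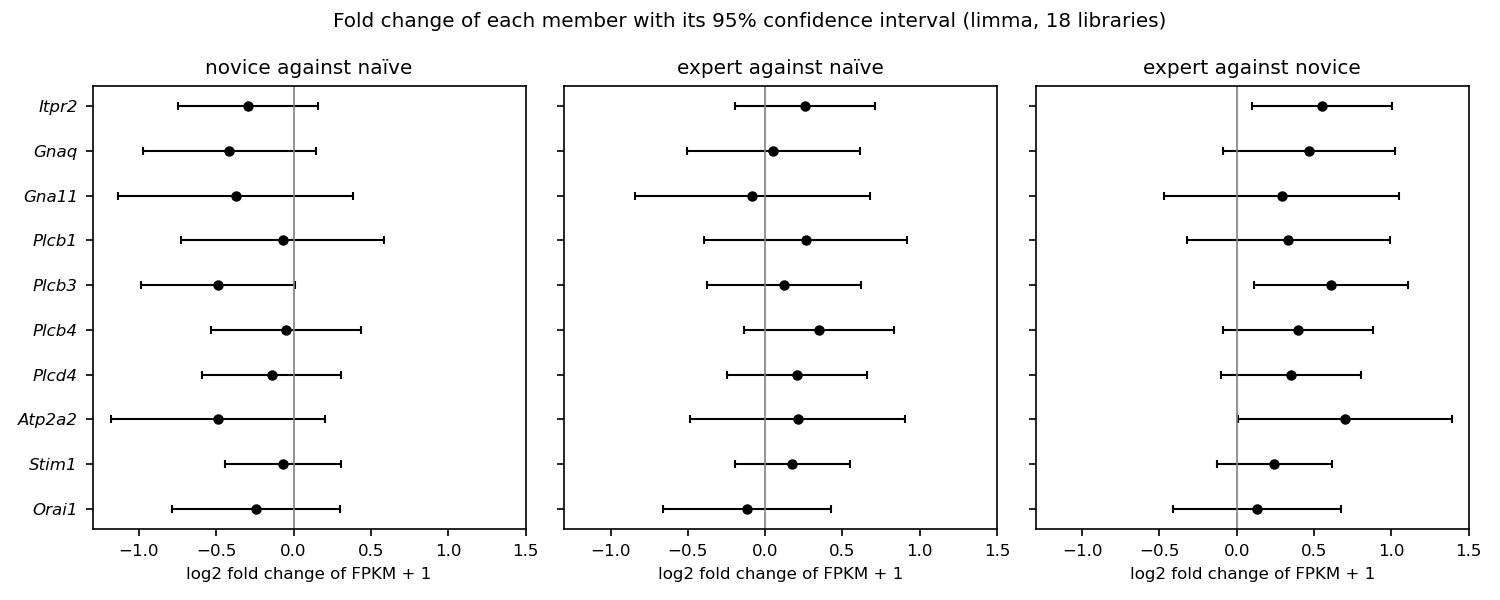
Log2 fold change of FPKM + 1 (horizontal axis) of each gene in the 3 comparisons, with 95% confidence intervals from limma over 18 libraries. Points lie left of 0 for all genes in novice against naïve and right of 0 for all in expert against novice, where the intervals of Itpr2, Plcb3 and Atp2a2 start at 0.10, 0.12 and 0.01.

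Background class went with the members' levels, but other traits of the libraries went with the class. The astrocyte marker mean was 6.81 to 8.16 in libraries of lower and 5.91 to 6.50 in libraries of higher background. The neuron marker mean was 3.91 to 5.46 in the lower class and 3.39 to 4.18 in the higher. Bc1 held 18.4% to 59.6% of the summed FPKM in the lower class and 6.01% to 19.2% in the higher. The FPKM of 1 fragment on 1 kb, lower at greater depth, was 0.542 to 1.07 (without expert 3) and 1.07 to 1.90. Which of these traits the members' levels followed was not tested. The 9 members other than Orai1 had lower means in the 8 libraries of higher background than in the 10 of lower background, with ratios of 0.42 to 0.75, while the ratio of Orai1 was 1.13. For Gnaq, Gna11, Plcb1 and Atp2a2, all 8 libraries of higher background lay below all 10 of lower background, as they did for 5.89% of all genes tested and 11.3% of genes of like abundance. Gna11 averaged 11.0 FPKM in libraries of higher and 26 FPKM in libraries of lower background, and Atp2a2 averaged 29.7 FPKM in libraries of higher and 67.3 FPKM in libraries of lower background. Because 4 of 6 novice libraries but 2 of 6 in each other group had the higher background, the comparisons were also made within each class. For novice against naïve within the lower class, 3 members were higher and 7 lower (median of the log2 fold changes -0.11), and within the higher class 5 were higher and 5 lower (median -0.02). For expert against novice within the lower class, 8 members were higher, with a median of 0.26, and within the higher class 10, with a median of 0.20. The lower class holds only 2 novice libraries and the higher class only 2 naïve and 2 expert libraries.

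How far the training groups stood apart differed between members and between classes. In libraries of lower background Itpr2 averaged 15.3 FPKM in expert and 9.32 FPKM in novice libraries, and Plcb3 averaged 13.5 FPKM in expert and 7.52 FPKM in novice libraries. In the same libraries Gnaq averaged 23.1 FPKM in expert and 22.7 FPKM in novice libraries, and Gna11 averaged 23.9 FPKM in expert and 31.0 FPKM in novice libraries. For Gna11 that direction was opposite to the one over all libraries. The pattern was not the same in libraries of higher background. There Gnaq averaged 13.1 FPKM in expert and 10.2 FPKM in novice libraries, and Gna11 averaged 11.7 FPKM in expert and 10.5 FPKM in novice libraries. In these libraries Itpr2 averaged 9.95 FPKM in expert and 8.30 FPKM in novice libraries, and Plcb3 averaged 7.40 FPKM in expert and 6.68 FPKM in novice libraries. Differences between members within a class were not tested. With background as a covariate in the fit, the median log2 fold change of the members for expert against novice was 0.12, and 0 members had an unadjusted p under 0.05.

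**Figure D3:**
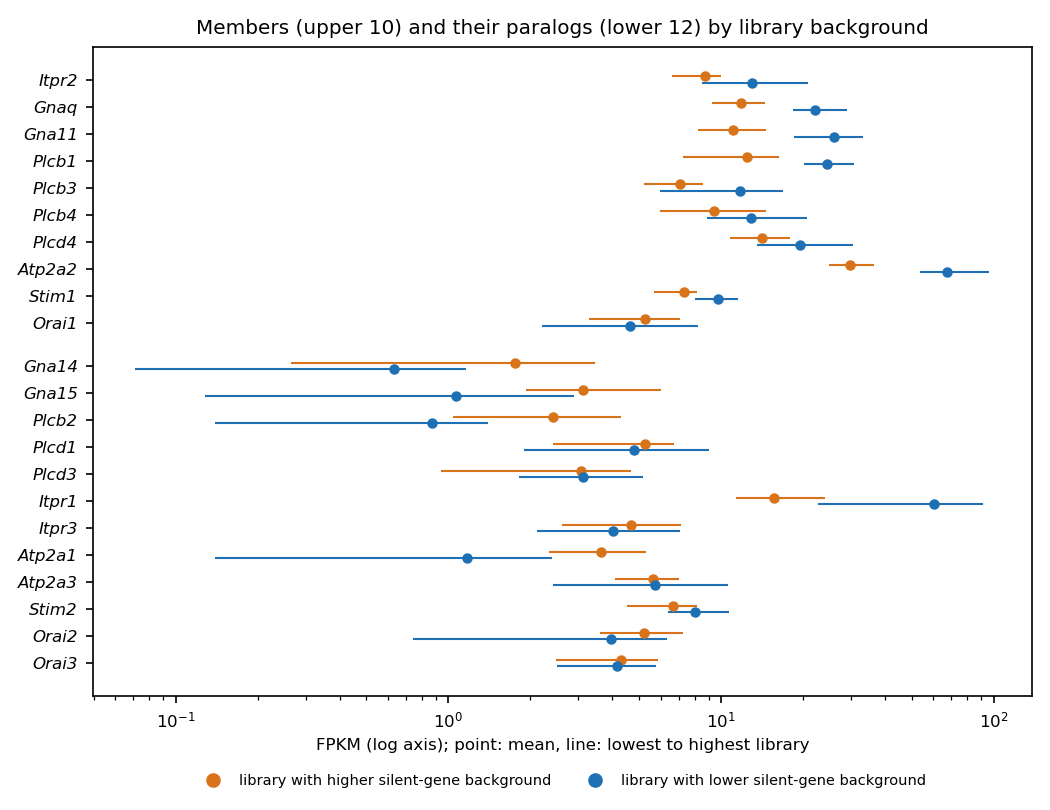
Mean FPKM (points) and range (lines) of the 10 members and their 12 paralogs on a log axis, in the 8 libraries of higher and the 10 of lower silent-gene background. The lines of Gnaq, Gna11, Plcb1 and Atp2a2 do not overlap between classes, and Gna14, Gna15, Plcb2 and Atp2a1 lie higher in libraries of higher background.

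The sequences upstream of the genes are shown for Gnaq, Gna11 and Plcb1, whose levels separated the library classes, and for Orai1, whose level did not. Each is the 250 bases before the annotated start, from RefSeq on GRCm38.p6, which differs from the build mm9 of the expression table; entries were found for 9 of the 10 members, all but Atp2a2. Capitals mark GC boxes (GGGCGG, or CCGCCC for the other strand) and CCAAT boxes (CCAAT, or ATTGG), searched on both strands.
Gnaq, chr19:16132434-16132683, plus strand: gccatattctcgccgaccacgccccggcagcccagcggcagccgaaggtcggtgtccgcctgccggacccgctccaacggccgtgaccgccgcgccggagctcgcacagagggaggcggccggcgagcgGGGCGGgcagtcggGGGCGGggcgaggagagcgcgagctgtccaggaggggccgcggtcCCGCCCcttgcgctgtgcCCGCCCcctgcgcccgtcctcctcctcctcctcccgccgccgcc
Gna11, chr10:81545163-81545412, minus strand: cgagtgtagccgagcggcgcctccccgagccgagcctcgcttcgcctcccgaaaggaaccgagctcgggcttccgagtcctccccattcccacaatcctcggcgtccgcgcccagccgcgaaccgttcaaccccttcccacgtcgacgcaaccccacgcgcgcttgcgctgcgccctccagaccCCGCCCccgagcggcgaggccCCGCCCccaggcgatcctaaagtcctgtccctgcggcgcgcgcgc
Plcb1, chr2:134785914-134786163, plus strand: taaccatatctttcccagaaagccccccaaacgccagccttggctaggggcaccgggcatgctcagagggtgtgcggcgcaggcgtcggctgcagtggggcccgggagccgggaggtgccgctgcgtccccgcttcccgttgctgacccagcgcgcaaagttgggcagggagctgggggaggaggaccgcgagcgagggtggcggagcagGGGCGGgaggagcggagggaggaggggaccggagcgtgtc
Orai1, chr5:123014824-123015073, plus strand: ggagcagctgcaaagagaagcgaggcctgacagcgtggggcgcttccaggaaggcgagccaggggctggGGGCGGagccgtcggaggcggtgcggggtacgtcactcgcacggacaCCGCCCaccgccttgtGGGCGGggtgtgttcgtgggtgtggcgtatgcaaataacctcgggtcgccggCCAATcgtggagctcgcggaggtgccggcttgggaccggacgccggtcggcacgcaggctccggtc
These windows hold 4 GC boxes for Gnaq, 2 for Gna11, 1 for Plcb1 and 3 for Orai1, and Orai1 also holds 1 CCAAT box. Of the 9 members with an entry, 8 had a GC box in the first listed window, against 32.9% of the 27025 windows of all genes, and Plcd4 had none. GC content was 79.2%, 73.2%, 71.2% and 70.8% in the windows shown, against a median of 52% over all genes. TATA boxes (TATAAA, in 13% of all windows) and cAMP response elements (TGACGTCA, in 1.62%) were in none of the members' windows. A match of letters is a description of the window and says nothing of binding or use.

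Across libraries of 1 class the members were related to the astrocyte, neuron and endothelial marker means, in 60 relations adjusted together. In the 10 libraries of lower background Itpr2 rose with the astrocyte mean (Pearson r = 0.87, permutation test with adjusted p = 0.013; Spearman rho = 0.83, adjusted p = 0.070), with r = 0.80 without expert 3 and naïve 2. Atp2a2 did so in both classes, with r = 0.93 (permutation, adjusted p = 0.010; rho = 0.79, adjusted p = 0.088) in the 10 libraries of lower background and r = 0.93 (exact permutation, adjusted p = 0.010; rho = 0.98, adjusted p = 0.024) in the 8 of higher background. Without the 2 libraries farthest from the median these were 0.79 and 0.87. Plcd4 followed the astrocyte mean in the lower class (r = 0.86, permutation, adjusted p = 0.026; rho = 0.84, adjusted p = 0.070; r = 0.74 without expert 3 and naïve 2) but at r = 0.37 in the higher class, where the exact permutation p was 0.366. Gna11 did not follow it in the lower class (r = -0.07), and had r = 0.75 with the neuron mean there (permutation, adjusted p = 0.077; rho = 0.84, adjusted p = 0.070; r = 0.80 without expert 3 and expert 1). In the lower class Itpr2 also had r = 0.80 with the endothelial mean (permutation, adjusted p = 0.066), and r = 0.59 without expert 6 and expert 3. With the neuron mean it had r = -0.74 there (permutation, adjusted p = 0.084). In the higher class its r with the astrocyte mean was 0.63 (exact permutation p = 0.092). In bulk samples fewer cells of a type and less RNA per cell cannot be told apart.

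**Figure D4:**
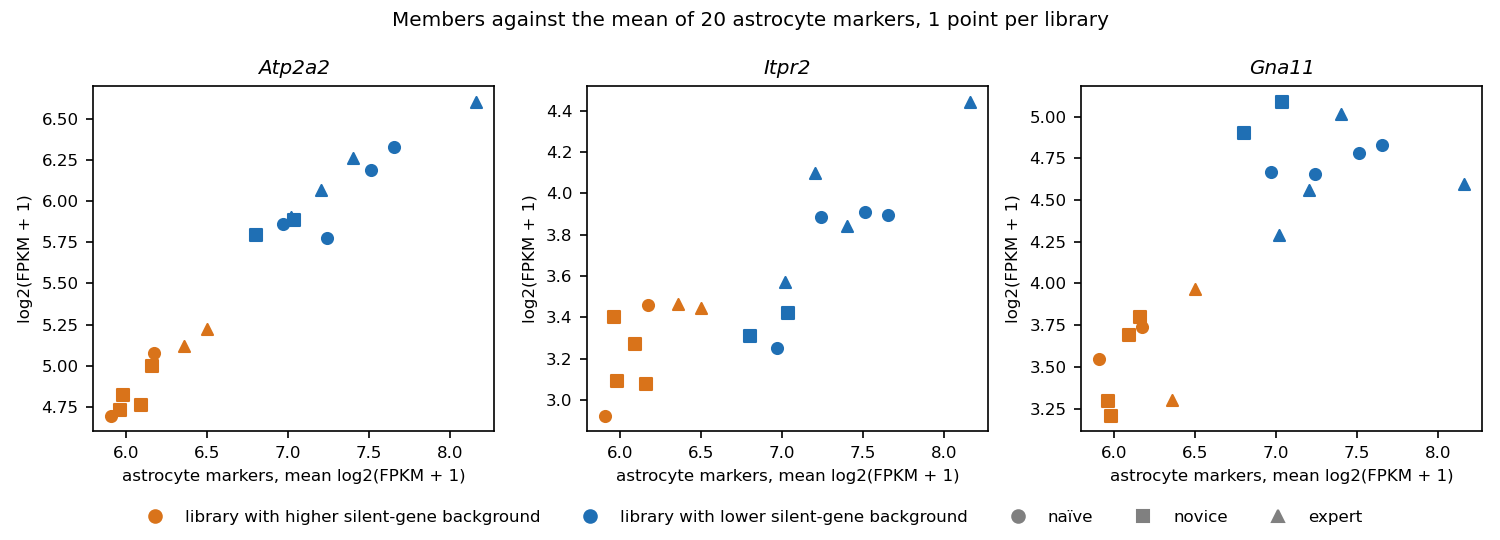
Log2(FPKM + 1) of Atp2a2, Itpr2 and Gna11 (vertical axis) against the mean of 20 astrocyte markers (horizontal axis), 1 point per library, with colour for background class and shape for group. Atp2a2 rises with the markers within each colour (r = 0.93 in both), while Gna11 is flat within the lower class (r = -0.07).

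By likeness over the 18 libraries among genes with a mean of at least 5 FPKM, the genes closest to Itpr2 were Gpr56, an adhesion receptor, and Htra1, a secreted protease. Within the classes of lower and higher background Gpr56 had r = 0.92 and 0.85 with Itpr2, and Htra1 0.92 and 0.84. Closest to Atp2a2 were Eif4g3, a translation initiation factor, with r = 0.93 and 0.96, and Qk, an RNA binding protein, with 0.92 and 0.95. Closest to Gnaq were Mink1 and Map4, to Gna11 Cbx6 and Cdc42bpa, to Plcb1 Pabpc1 and Prkar1a, to Plcb3 Wdr1 and Xpr1, and to Plcb4 Baz1b and Tspan14. Closest to Plcd4 were Srebf1 and F3, to Stim1 Csnk2a1 and Rbm25, and to Orai1 Aph1a and Lrrc8c.

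The wider pathway was followed in 9 lists with 209 genes, of which 199 were in the table and tested. For novice against naïve 84 of them had the higher mean and 115 the lower, for expert against naïve 96 and 103, and for expert against novice 107 and 92, and 0 passed the adjusted threshold in any. At an unadjusted p under 0.05, 0 were higher and 3 lower for novice against naïve, 2 higher and 0 lower for expert against naïve, and 14 higher and 9 lower for expert against novice. These counts come to 1.51%, 1.01% and 11.6% of the 199, where 4.60%, 2.86% and 10.9% of all genes passed in either direction. Among 30 Gq-coupled receptors, 7 were higher and 23 lower in expert than in novice libraries, and the median was -0.34 on the log2 scale, against -0.14 over all genes. In novice libraries most of these receptors averaged less than the chemoreceptor genes, whose mean was 4.72 FPKM there and 2.98 FPKM in expert libraries. The share of background in the receptors' values was not tested. Ednrb, the endothelin receptor of astrocytes, stood at 45.1 ± 19.4 FPKM in expert and 23.9 ± 6.74 FPKM in novice libraries (log2 fold change 0.85, limma with Benjamini-Hochberg adjusted p = 0.449), and the muscarinic receptor Chrm1 at 5.28 ± 1.87 FPKM in expert and 7.72 ± 1.06 FPKM in novice libraries (log2 fold change -0.53, the same adjusted p).

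Of 25 partners and regulators of Gq tested, 18 were higher and 7 lower for expert against novice; Rgs5, which is also a pericyte marker, stood at 116 ± 48.5 FPKM in expert and 70.6 ± 12.6 FPKM in novice libraries, and Gna15 at 1.23 ± 0.897 FPKM in expert and 3.03 ± 1.91 FPKM in novice libraries. Of 11 other phospholipases C, 6 were higher and 5 lower. The smallest p was that of Plcb2, at 0.896 ± 0.611 FPKM in expert and 2.12 ± 1.28 FPKM in novice libraries (log2 fold change -0.68), followed by Plcg1, a gamma isoform activated by tyrosine kinases, at 17.7 ± 6.81 FPKM in expert and 12.4 ± 1.16 FPKM in novice libraries. Of 37 genes of IP3 and diacylglycerol metabolism, 24 were higher and 13 lower. Cds1, a synthase of CDP-diacylglycerol, stood at 2.70 ± 1.42 FPKM in expert and 4.89 ± 1.86 FPKM in novice libraries (log2 fold change -0.70), and the inositol phosphate kinase Itpk1 stood at 9.0 ± 0.813 FPKM in expert and 6.35 ± 1.69 FPKM in novice libraries. Of 11 store release channels, 7 were higher and 4 lower, with the lysosomal channel Tpcn1 at 19 ± 7.24 FPKM in expert and 9.72 ± 3.02 FPKM in novice libraries. Of 17 store pumps and calcium binders of the store, 11 were higher and 6 lower. Of 19 store-operated entry and related channels, 8 were higher and 11 lower, and Trpc5, a receptor-operated cation channel, stood at 1.54 ± 0.548 FPKM in expert and 3.30 ± 1.16 FPKM in novice libraries. In the same list Orai2 stood at 4.0 ± 1.86 FPKM in expert and 5.68 ± 1.44 FPKM in novice libraries. The chemoreceptor genes averaged 2.98 FPKM in expert and 4.72 FPKM in novice libraries, and Gna15, Plcb2 and Trpc5 lay below these means in both. Libraries of higher background, 4 of the novice and 2 of the expert group, held 2.92 times the Gna15 and 2.77 times the Plcb2 of the others. The share of background in these low values was not tested.

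Of 21 plasma membrane and mitochondrial calcium transport genes, 8 were higher and 13 lower for expert against novice; Mcur1, a regulator of mitochondrial calcium uptake, stood at 13.5 ± 4.31 FPKM in expert and 8.29 ± 1.95 FPKM in novice libraries. Of 28 calcium binding effectors, 18 were higher and 10 lower; the calmodulin-dependent kinase Camk1 stood at 11.2 ± 4.06 FPKM in expert and 5.4 ± 2.13 FPKM in novice libraries (log2 fold change 0.91, limma with Benjamini-Hochberg adjusted p = 0.449). Camk1 stood at 5.4 ± 2.13 FPKM in novice and 9.66 ± 1.86 FPKM in naïve libraries (log2 fold change -0.79, limma with Benjamini-Hochberg adjusted p = 0.890). The astrocyte markers had the lower mean for novice against naïve in 20 of 20 cases and the higher mean for expert against novice in 20 of 20, with medians of -0.60 and 0.77. The members' medians for these comparisons, -0.27 and 0.37, lay between those of the astrocyte markers and of all genes, and the part of cell content in them was not tested.

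**Figure D5:**
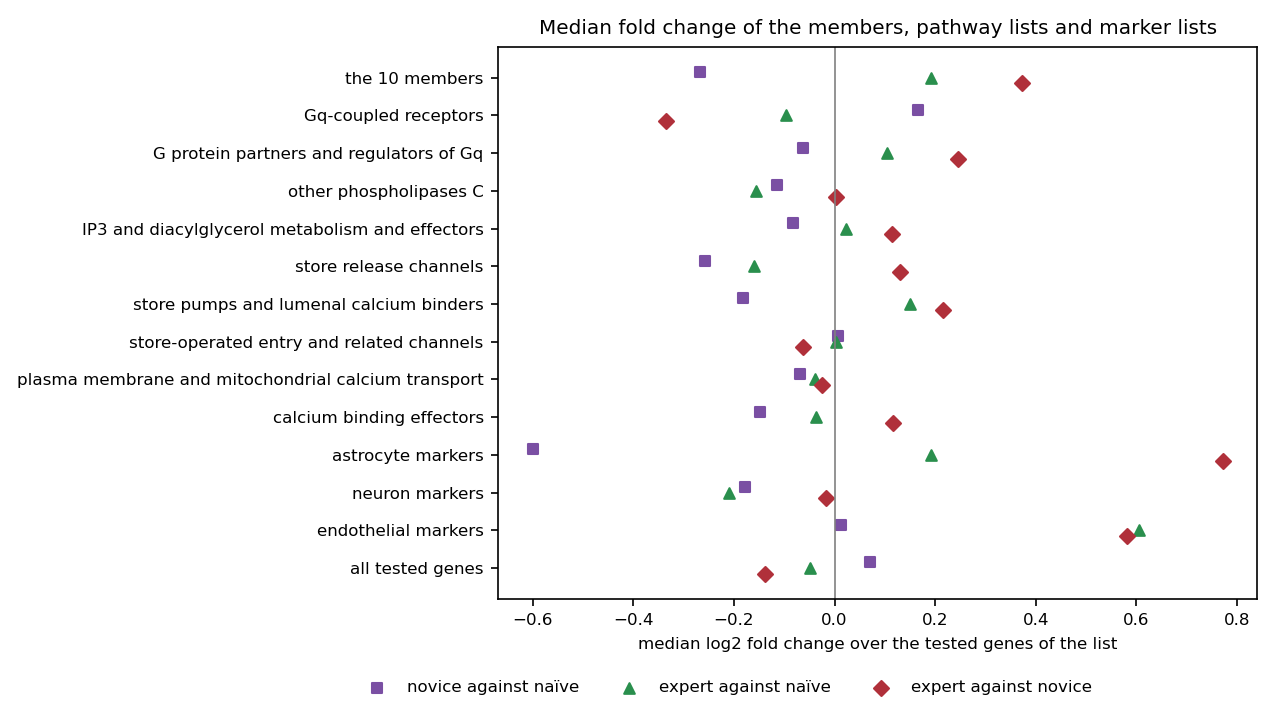
Median log2 fold change (horizontal axis) of the 10 members, 9 pathway lists, 3 marker lists and all tested genes in the 3 comparisons, 1 symbol per comparison. The members' medians of -0.27, 0.19 and 0.37 lie on the same side of 0 as those of the astrocyte markers, while the Gq-coupled receptors lie on the opposite side. Most of these receptors averaged below the chemoreceptor genes in novice libraries, and the share of background in their values was not tested.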

How the data were processed

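RNA from M1 astrocytes was measured in 18 libraries, 6 per group. Per the labels' protocols, RNA was taken by proteinase K digestion and a silica column, and stranded total RNA libraries were sequenced on an Illumina instrument. The deposited FPKM values were made with TopHat and Cufflinks on build mm9, per the submitters' processing notes; no version or annotation is given in the sources used here. The authors call the table normalized counts, but its values behave as FPKM. Of 23951 entries, 27 names turned into dates were left out.

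The 21745 genes that reached 1 FPKM in 6 or more libraries, all 10 members among them, were fitted on log2(FPKM + 1) with limma 3.58.1 in R 4.3.3 (eBayes with trend, 1 mean per group, two-sided). Adjustment over the whole set of tested genes followed Benjamini and Hochberg, with a threshold of 0.05. Fold changes are on the log2(FPKM + 1) scale, which understates changes of low genes. Ratios and marker relations used permutation tests coded directly, with ranks and the Benjamini-Hochberg adjustment from scipy 1.17.1. The limma script was tested on simulated data. Read totals are not part of the table, so depth was estimated from the FPKM of 1 fragment on 1 kb, 0.542 to 1.90 in the 17 libraries other than expert 3. Such estimates cover counting error only.

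Members and lists were chosen with earlier results of these data known. Named genes are the members, 12 paralogs, genes among the 2 with the smallest p per pathway list and comparison, and the 2 genes most like each member. The labels do not say that libraries came from separate mice, so p-values measure the spread between libraries, which may be technical. Alternatives were other pseudocounts, filters, scalings, covariates, a replicate block, and libraries left out. The highest correlation between libraries was 0.91, so none was counted as a duplicate.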

Additional observations from a re-analysis of the deposited data

Results flagged for a closer look

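Of 30 sets of 6 values, 1 per member and group, 1 held a library far from the others. Plcb4 stood at 20.6 FPKM in expert 6, against 10.9 to 13.7 FPKM in the other 5 expert libraries, a gap of 0.706 of the whole range, where 0.625 is the limit for 6 values. Chance flags about 1 in 20 such sets. Expert 6 was also the library richest in endothelial markers, at a mean of 5.69 on the log2(FPKM + 1) scale, and the part of this in the Plcb4 value was not tested.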

How the results depend on the processing

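The fold changes were recomputed under 32 alternative settings, and 0 of 960 values passed the adjusted threshold, the smallest adjusted p being 0.236 for expert against novice without expert 4 (limma, Benjamini-Hochberg). The direction held in 911 and turned in 49; the cause was not tested. In comparisons of novice with naïve, Plcb1 stood at 0.068 and Plcb4 at 0.041 after quantile normalization. With background as a covariate Plcb1 stood at 0.21, Plcb4 at 0.073, Plcd4 at 0.00384 and Stim1 at 0.038, and with labelled sex and age Plcb1 at 0.062. Without novice 1 and 3, whose sex-linked transcripts go against their labels, Plcb4 stood at 0.050. In libraries of lower background Gnaq stood at 0.11, Gna11 at 0.26 and Plcb1 at 0.055, and in those of higher background Itpr2 at 0.018, Plcb1 at 0.50, Plcb4 at 0.34, Plcd4 at 0.033 and Stim1 at 0.19. In comparisons of expert with naïve, Gna11 stood at 0.00935 with trimmed mean of M values scaling and Gnaq at -0.0905 with the background covariate. In libraries of higher background Gnaq stood at -0.062 and Orai1 at 0.078. Without expert 3 and 6, left out together after seeing the data, Gnaq stood at -0.035, Plcb3 at -0.016, Plcd4 at -0.00342 and Atp2a2 at -0.026, and the members' median was -0.01. In comparisons of expert with novice, Gna11 stood at -0.23 and Plcb1 at -0.13 with the background covariate, Gnaq at -0.000372 and Gna11 at -0.38 in libraries of lower background, and Orai1 at -0.00440 without novice 1 and 3 and at -0.0873 without expert 3 and 6. Over all genes tested, the median log2 fold change for expert against novice was -0.14, but 0.04 after quantile normalization. The count of all genes called was 0, except 3, 4 and 5 for novice against naïve, expert against naïve and expert against novice within libraries of higher background.

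Leaving out each library in turn gave, for novice against naïve, -0.30 to 0.067 for Plcb1, -0.18 to 0.060 for Plcb4 and -0.16 to 0.013 for Stim1. For expert against naïve it gave -0.066 to 0.18 for Gnaq, -0.25 to 0.11 for Gna11 and -0.25 to 0.051 for Orai1, and for expert against novice -0.011 to 0.29 for Orai1; the other members kept their direction. Within one direction, the range for expert against naïve was 0.00047 to 0.26 for Plcb3, 0.017 to 0.36 for Atp2a2, 0.035 to 0.41 for Plcb1, 0.075 to 0.31 for Plcd4, 0.081 to 0.26 for Stim1 and 0.13 to 0.33 for Itpr2. Without expert 3 the count of all genes with an unadjusted p under 0.05 for expert against novice was 972, against 2360 with it, and without expert 4 it was 4376. Of 252 ratio values 26 turned direction and 0 were called. For novice against naïve the Itpr2 to Itpr1 ratio stood at 0.00387 with a pseudocount of 5 FPKM and 0.0873 without novice 1 and 3, where Plcb1 to Plcb4 for expert against novice stood at 0.026. Leaving out each library, chosen after seeing the data for all but expert 3, the range for novice against naïve was -0.15 to 0.029 for Gnaq to Gna11, -0.25 to 0.26 for Itpr2 to Itpr1 and -0.12 to 0.11 for Plcb1 to Plcb4. It was -0.055 to 0.14 for Itpr2 to Atp2a2 and -0.19 to 0.028 for Plcb1 to Plcb4 for expert against naïve, and -0.20 to 0.052 for Plcb1 to Plcb4 for expert against novice.

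Whether the replicate numbers pair the libraries was not settled. Same-numbered libraries correlated in their deviations from the group means between -0.36 and 0.46. Of these, 10 of 18 pairs were over 0.1, and 1 library correlated best with its own number. Libraries numbered 2 correlated at 0.30 to 0.46 and those numbered 5 at 0.20 to 0.33, while the other numbers gave both signs. At an unadjusted limma p under 0.05 for expert against novice, 4 members and 2963 genes passed with a replicate block, against 3 and 2360 without it. With the replicate block 0 members and 0 genes were called, with an adjusted p of 0.366 for Itpr2 for expert against novice (limma); the fold changes, 0.55 for Itpr2, cannot move under a block in this balanced design. Depth limits Orai1 most, at about 8 fragments in the median library.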
